A study of Mus musculus with 2 samples.

Results

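The nuclear rRNA repeat is represented in the GENCODE mouse annotation by 3 genes of biotype lincRNA, Gm26917, Gm42418 and AY036118, and small RNA reads from these genes were described in mesenchymal stem cells with and without Dicer. A read was taken where it was at least 18 nt long, lay in sense and without mismatch in 1 of the 3 genes, and lay in no gene of biotype miRNA or rRNA. The members are thus 3 of 55450 annotated genes, and 2 of them, Gm26917 and Gm42418, had reads. They were chosen by their reads and their null to f/f ratio in these same libraries, so every ratio of theirs is given as a description.

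The libraries came from 2 immortalized lines of C57BL/6 mouse mesenchymal stem cells, a fibroblast-like cell of adult bone marrow: the null line, Dicer -/-, and the f/f line, Dicer f/f, which the labels also call wild type. Both were grown in alpha-MEM with fetal bovine serum and harvested close to confluence, and small RNA was cut from a gel after Qiazol extraction. Each genotype is 1 monoclonal line and 1 library, so the genotype cannot be told apart from the clone, the culture or the library, and no test between genotypes was made. The null library held 6291599 reads and the f/f library 9943989 reads. At least 1 fragment read came from 12 of 12 mesenchymal marker mRNAs in null and from 10 of 12 in f/f, where Eng had 1 read and Col3a1 had 3. The haematopoietic transcripts Hbb-bs, Hba-a1 and Lyz2 and the endothelial Cdh5 were at 0 reads in both. The haematopoietic Ptprc had 26 reads in null and 3 in f/f, and Cd68 had 11 in null and 0 in f/f. The endothelial Kdr had 22 reads in null and 6 in f/f. Summed reads of the other marker lists were 37 in null and 3 in f/f for 5 haematopoietic genes, 812 in null and 416 in f/f for 3 endothelial genes, nearly all from Pecam1 (790 in null, 410 in f/f), and 70 in null and 40 in f/f for 4 epithelial genes; their part in the results was not tested.

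In the nucleolus RNA polymerase I copies each repeat into a long precursor that holds the 18S, 5.8S and 28S rRNAs between external transcribed spacers (ETS) and internal transcribed spacers (ITS). The spacers are cut away and degraded, and the last cut at the 3′ end of 18S, made by the endonuclease NOB1, separates 18S from what is left of ITS1. Dicer is the ribonuclease that cuts miRNA hairpins and long double-stranded RNA into short duplexes.

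Gm26917 (ENSMUSG00000097971.3, chr17:39843013-39846341, plus strand, GRCm38, 3329 nt) ends 12 nt before the 18S start that RefSeq annotates and was read as 5′ ETS. The RefSeq entry used for the 18S start and end, Rn18s-rs5, is 1849 nt long and is annotated as a pseudogene. Gm42418 (ENSMUSG00000098178.1, chr17:39846958-39848788, plus strand, 1831 nt) covers the last 1244 nt of 18S followed by 587 nt of ITS1. AY036118 (ENSMUSG00000105361.1, chr17:39847113-39848035, minus strand, 923 nt) is the exact reverse complement of Gm42418 positions 156 to 1078, so a read in AY036118 would be antisense to 18S. A stretch of 616 nt between Gm26917 and Gm42418 lies in none of them, so the 5′ part of 18S was not counted, and nor were 5.8S, ITS2 and 28S.

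Most of the commonest reads came from 1 place, the 3′ end of 18S, and the window around it on the plus strand is shown here with the ITS1 bases in capitals. The last 18S base was set directly before the most frequent read start near the annotated end. This placed it at Gm42418 position 1244 (chr17:39848201), 1 base before the end that RefSeq annotates. Below the window (chr17:39848157-39848246) stand the reads that recur in the results, with ITS1 bases again in capitals: the commonest read that starts at the first ITS1 base, the commonest that ends at the last 18S base, the commonest that crosses the cut, the commonest inside 18S in null and the commonest inside 18S in f/f. Sequences are written with T, 5′ to 3′, as in GENCODE and the deposited reads.
18S end and ITS1 start: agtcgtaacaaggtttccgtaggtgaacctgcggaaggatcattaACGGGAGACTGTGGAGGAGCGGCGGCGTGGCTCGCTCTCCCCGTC
read from the ITS1 start (chr17:39848202-39848231): ACGGGAGACTGTGGAGGAGCGGCGGCGTGG
read to the 18S end (chr17:39848184-39848201): cctgcggaaggatcatta
read across the cut (chr17:39848185-39848208): ctgcggaaggatcattaACGGGAG
18S read, null (chr17:39847954-39847975): ttcgtgatggggatcggggatt
18S read, f/f (chr17:39848026-39848044): ttgcgttgattaagtccct

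In the 5′ ETS the reads with the commonest start lay in the window chr17:39843925-39843984, which is shown because it holds the leading 5′ ETS cluster; capitals run from that first base, Gm26917 position 933.
5′ ETS leading start: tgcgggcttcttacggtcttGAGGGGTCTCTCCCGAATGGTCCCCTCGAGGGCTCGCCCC

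Reads from the repeat were more frequent in the null library in the 5′ ETS, in 18S and in ITS1. The members together had 16113 reads in null and 3679 reads in f/f, which is 2561 CPM (counts divided by the library's own total and set to a common scale) in null and 370.0 CPM in f/f. The CPM ratio of null over f/f was 6.92, with an exact counting interval of 6.68 to 7.18 at 95%. All intervals here cover counting error only, and since PCR copies are not independent molecules they are narrower than the true error. In a bulk library, more cells with a fragment and more of it per cell cannot be told apart. Both members with reads were more than 2-fold higher in null; over all genes with at least 100 reads in the 2 libraries together, 5656 of 7160, or 79.0%, were more than 2-fold higher in null and 6.54% more than 2-fold lower, with a median ratio of 4.39. Among mRNA and lncRNA genes alone these shares were 82.3% and 2.39%.

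The ratio therefore depends on what the reads are scaled to. Per read that matches an annotated transcript the members were 23.4-fold higher in null, and per read of 18 nt or more 7.60-fold. Exon fragments of all other mRNA and lncRNA genes were 4.73-fold higher in null, and 7.54-fold higher without Tmem38b and Dnm3os, 2 genes with 16560 reads in null and 40976 in f/f. Per mRNA and lncRNA exon read the members were 1.46-fold higher in null, and per such read without Tmem38b and Dnm3os they were at 0.918 of f/f, so the direction reverses. Per snoRNA and snRNA read they were 1.61-fold higher. A rise specific to the repeat cannot be told apart here from the rise of RNA fragments in general among the null reads.

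Gm26917, the 5′ ETS, had 2812 reads in null and 642 in f/f, at 447 CPM in null and 64.6 CPM in f/f. Gm42418, 18S with ITS1, had 13301 reads in null and 3037 in f/f, at 2114 CPM in null and 305 CPM in f/f. Their ratios were the same to 3 digits, 6.92 for Gm26917 (6.35 to 7.55) and 6.92 for Gm42418 (6.65 to 7.20). AY036118 had 0 reads in both libraries, where the floor of 3 counts is 0.477 CPM in null and 0.302 CPM in f/f and the exact intervals reach 0.586 CPM in null and 0.371 CPM in f/f. No read was antisense to Gm26917 in either library, while the mitochondrial 16S rRNA mt-Rnr2 had 77 antisense reads in null and 30 in f/f.

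Per kb of transcript, 18S was covered most densely, with 1369 CPM per kb in null and 189 CPM per kb in f/f. ITS1 followed with 493 CPM per kb in null and 52.3 in f/f, and the 5′ ETS with 134 in null and 19.4 in f/f. The order of the 3 regions was thus the same in both libraries. The 5′ ETS gave 17.5% of member reads in null and 17.5% in f/f. Reads wholly in ITS1 gave 11.3% in null and 8.29% in f/f, and their intervals (10.8 to 11.8% in null, 7.42 to 9.23% in f/f) did not overlap. Reads wholly in 18S had a ratio of 7.23 (6.91 to 7.57) and reads wholly in ITS1 a ratio of 9.44 (8.35 to 10.7).

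**Figure D1:**
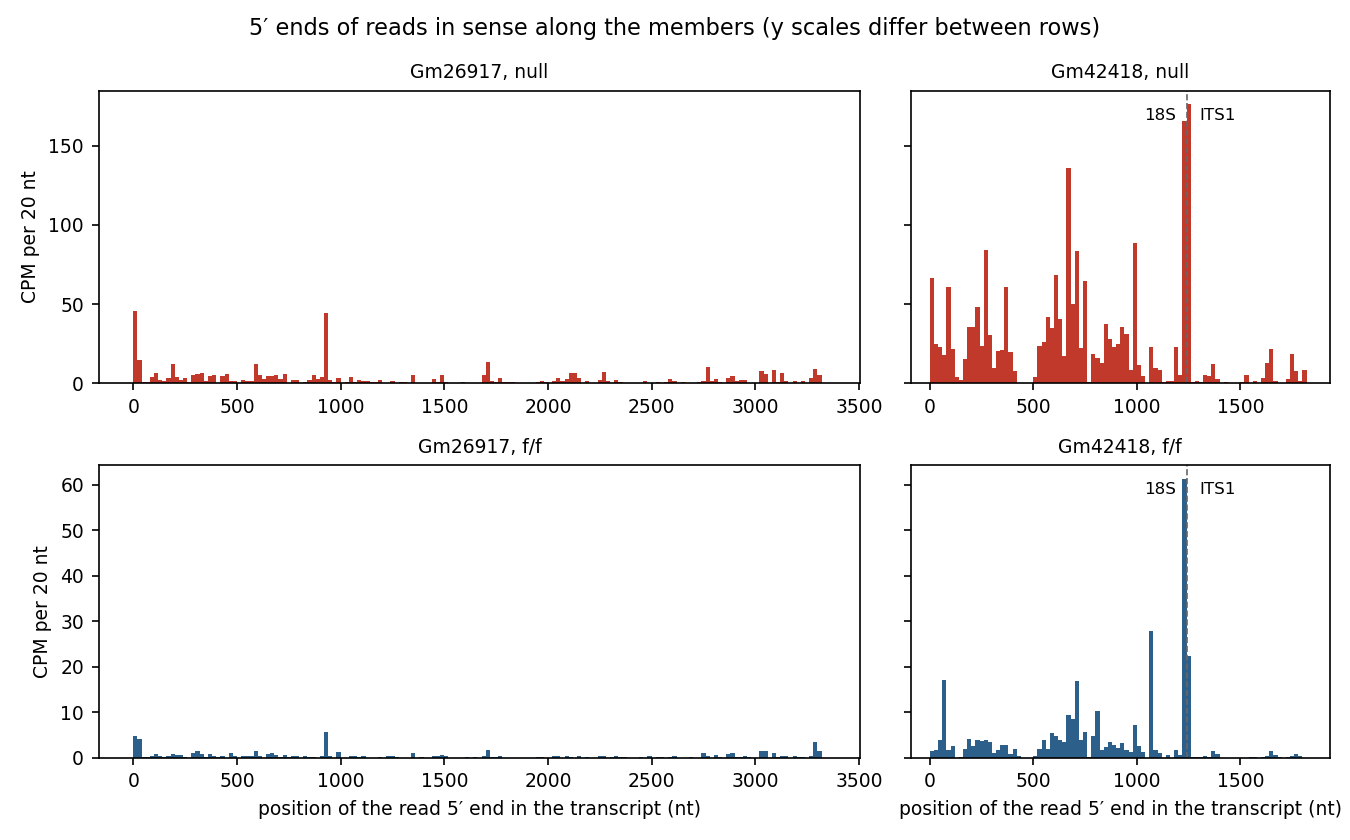
5′ ends of member reads along Gm26917 (5′ ETS) and Gm42418 (18S, then ITS1 right of the dashed line), summed in bins of 20 nt, in CPM. Null is above f/f and the rows have different scales; the highest null bins lie on both sides of the 18S end, while in f/f the highest lies on its 18S side and the next near position 1068, where null has no such peak.

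The excess in null extended along both transcripts. Of the 33 windows of 100 nt in Gm26917 with reads in both libraries, 33 had a ratio above 2, from 2.63 to 28.98, with a median of 7.05. Over all genes 79.0% were more than 2-fold higher in null. Some windows had few reads. The lowest ratio came from 10 reads in null and 6 in f/f, with an interval (0.867 to 8.82) that includes 1. The highest came from 110 reads in null and 6 in f/f. Of 17 such windows in Gm42418, 16 had a ratio above 2 and the other was at 1.45. The median was 9.58, and the highest, 37.9 (9.94 to 322), came from 48 reads in null and 2 in f/f.

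The 3′ end of 18S was a place where the libraries differed in composition. Reads that ended at the last 18S base numbered 278 in null and 222 in f/f, a ratio of 1.98 (1.65 to 2.37). Reads that crossed the cut numbered 764 in null and 390 in f/f, a ratio of 3.10 (2.74 to 3.51). Reads that began at the first ITS1 base numbered 646 in null and 103 in f/f, a ratio of 9.91 (8.04 to 12.3). The null excess was therefore larger on the ITS1 side of the cut than on the 18S side, and these intervals do not overlap. The reads of the 2 sides also differ in length. Reads to the 18S end were of 18 to 23 nt in 99.3% of cases in null and 98.2% in f/f. Those from the ITS1 start were of 24 to 35 nt in 90.2% in null and 81.6% in f/f. Over all member reads the ratio was 2.78 at 18 nt, 5.15 at 18 to 23 nt and 9.66 at 24 to 35 nt. The part of read length in this difference was not tested.

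Taken as shares of the reads at the cut, 1688 in null and 715 in f/f, those starting in ITS1 made up 38.3% in null and 14.4% in f/f. Those ending in 18S made up 16.5% in null and 31.05% in f/f. Those that crossed made up 45.3% in null and 54.5% in f/f. The ITS1 share was thus higher in null and the other shares lower, and for each of the 3 the intervals of the libraries did not overlap. These shares depend on the length limit. With reads from 17 nt, a limit chosen after the data were seen, reads starting in ITS1 made 15.8% in null and 3.66% in f/f, reads ending in 18S 64.9% in null and 82.1% in f/f, and crossing reads 19.4% in null and 14.2% in f/f, so the order of the libraries turned round for the crossing reads and for no other.

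The crossing reads were of narrow shape in both libraries. They carried 6 to 8 bases of ITS1 in 86.6% of cases in null and 88.2% in f/f. With 6, 7 and 8 bases there were 200, 260 and 202 reads in null, against 65, 125 and 154 reads in f/f, so the commonest overhang was 7 bases in null and 8 in f/f. No crossing read reached 36 nt, the longest read.

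The reads from the ITS1 start were of 1 main length as well. The 30-nt read printed above had 373 reads in null and 55 in f/f, and it made 57.7% of the reads from that start in null and 53.4% in f/f. A form 1 base longer, with 157 reads in null and 14 in f/f, ended at ITS1 position 31. Over all ITS1 reads under 36 nt, 51.3% in null and 51.7% in f/f ended at ITS1 position 30 or 31. Position 30 alone held 34.2% in null and 42.1% in f/f, and position 31 held 17.1% in null and 9.60% in f/f. A further start at ITS1 position 11 had 165 reads in null and 51 in f/f, and its commonest read (105 in null, 44 in f/f) ended at position 30 too. The 2 libraries thus shared these ends, while their levels and the split between positions 30 and 31 differed.

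**Figure D2:**
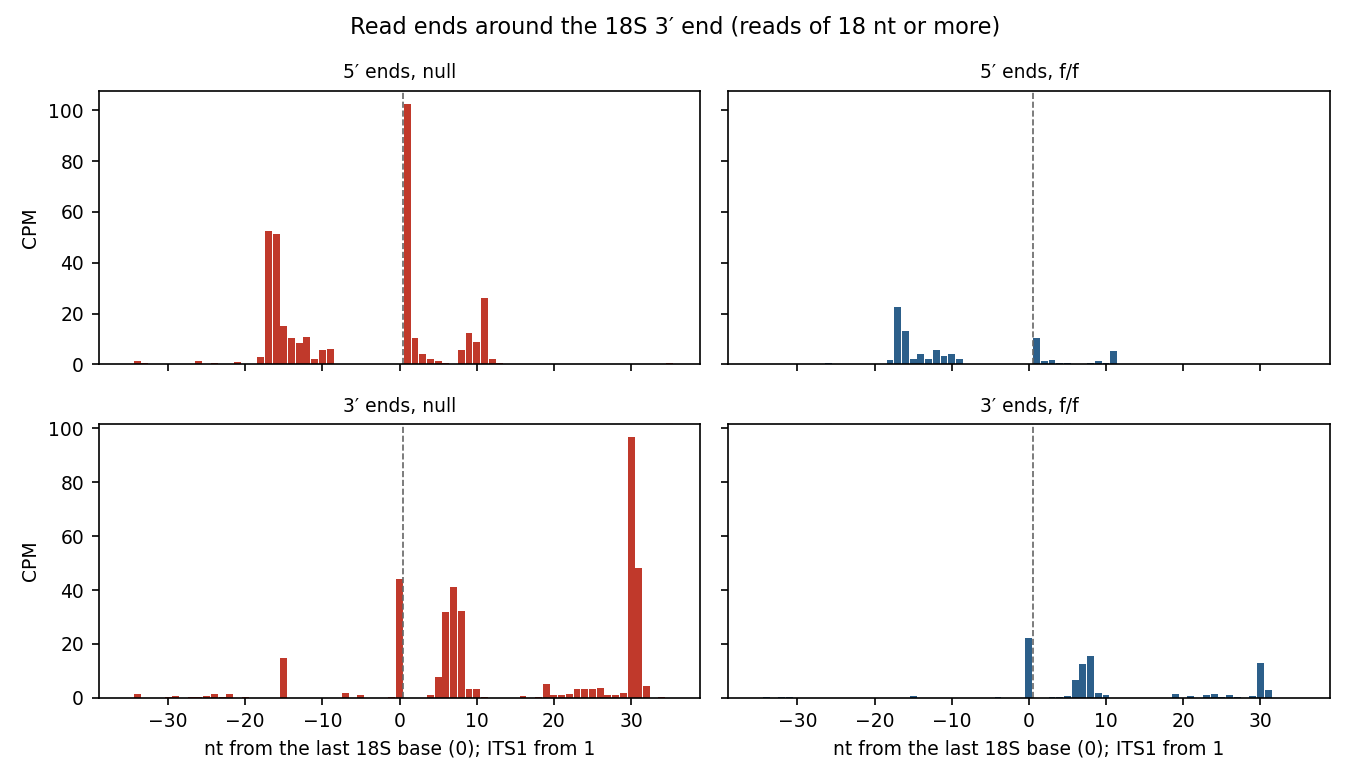
Read 5′ ends (top) and 3′ ends (bottom) in CPM by distance from the last 18S base, null left of f/f. Both libraries have starts at ITS1 position 1, ends at the last 18S base, ends at ITS1 positions 6 to 8 and ends at ITS1 positions 30 and 31.

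Reads to the 18S end were cut off by the length limit itself. Of those that qualified, 95.7% in null and 90.5% in f/f had the minimum length of 18 nt, and the 18-nt read printed above had 266 reads in null and 201 in f/f. The read 1 base shorter, which the rule leaves out and which was looked at after these values were seen, was far more frequent.
17-nt read to the 18S end (chr17:39848185-39848201): ctgcggaaggatcatta
It had 2383 reads in null and 2087 in f/f, or 379 CPM in null and 209.9 CPM in f/f, a ratio of 1.80 (1.70 to 1.91). It begins at the same base as the crossing read with 7 ITS1 bases printed above, which had 135 reads in null and 58 in f/f. Over all places in the members, 17-nt reads numbered 3300 in null and 2329 in f/f, of which this sequence made 72.2% in null and 89.6% in f/f, and 18-nt reads numbered 953 in null and 542 in f/f. The 15-nt form ending at the same base had 435 reads in null and 594 in f/f, a ratio of 1.16 (1.02 to 1.31). The forms of 15 to 18 nt that ended at the last 18S base had ratios from 1.16 to 2.61, beside 3.10 for the crossing reads. The highest, 2.61 for the 16-nt form, had an interval that overlapped the 2.74 to 3.51 of the crossing reads. The crossing reads counted had at least 18 nt, and their balance changed with length. At 18, 19 and 20 nt they numbered 48, 34 and 32 in null, against 32, 59 and 41 in f/f. At 24 nt they numbered 178 in null and 66 in f/f. The part of read length in this order was not tested.

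To compare positions, reads were gathered into clusters whose 5′ ends lay within 5 nt of the most frequent start. There were 443 clusters, and 49 of them had at least 100 reads over both libraries: 41 in 18S, 4 in the 5′ ETS, 3 in ITS1 and 1 across the cut. Of these 49, 45 were more than 2-fold higher in null, 4 were within 2-fold and 0 were more than 2-fold lower, with a median ratio of 9.98. Over all genes with at least 100 reads, 79.0% were more than 2-fold higher in null and 6.54% more than 2-fold lower, with a median ratio of 4.39. A cluster can pass the limit of 100 reads through null reads alone, so these counts and their median are a description. In 24 clusters the interval lay above the ratio of all member reads and in 8 below it.

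The largest cluster began at Gm42418 position 1227 and held the reads to and across the 18S end, 958 in null and 516 in f/f, with a ratio of 2.93 (2.63 to 3.27). It gave 5.95% of member reads in null and 14.03% in f/f, the first place in both. The second, at position 1245, held the reads from the ITS1 start, 759 in null and 147 in f/f, with a ratio of 8.16 (6.83 to 9.80). The ITS1 cluster at position 1255 had 349 reads in null and 76 in f/f (ratio 7.26).

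The clusters of highest rank inside 18S that are listed here had ratios from 3.98 to 21.2. Rank was by CPM summed over both libraries, so a cluster could reach it through null alone, and these ratios are a description. The cluster at position 674 had 660 reads in null and 67 in f/f, a ratio of 15.6 (12.1 to 20.3). That at position 997, which holds the 22-nt read printed above (207 in null, 30 in f/f), had 473 reads in null and 72 in f/f (ratio 10.4). Those at positions 620, 100 and 263 had 457, 337 and 335 reads in null, against 47, 33 and 25 reads in f/f, with ratios of 15.4, 16.1 and 21.2. The clusters at positions 707 and 748 had 272 and 308 reads in null, against 108 and 49 in f/f, with ratios of 3.98 and 9.93.

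The highest ratios among clusters with at least 100 reads were all near the start of Gm42418. The cluster at position 18 had 474 reads in null and 12 in f/f, a ratio of 62.4 (35.4 to 122). Its commonest read, shown because its cluster has the highest ratio, had 26 reads in null and 0 in f/f.
18S read of the cluster at position 18 (chr17:39846974-39846998): cagcagccgcggtaattccagctcc
The clusters at positions 90 and 269 followed, with 172 and 145 reads in null, against 5 and 8 reads in f/f, at ratios of 54.4 (22.9 to 169.6) and 28.6 (14.2 to 67.6).

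At the other end, 2 of the 49 clusters with at least 100 reads had a lower CPM in null. The cluster at position 1068 had 99 reads in null and 255 in f/f, a ratio of 0.614 (0.481 to 0.777), and gave 0.614% of member reads in null and 6.93% in f/f, the second place in f/f. Its commonest read is the 19-nt f/f read printed above, with 6 reads in null and 48 in f/f. The cluster at position 76 had 69 reads in null and 145 in f/f, a ratio of 0.752 whose interval (0.556 to 1.01) includes 1. The cluster at position 1234, which crosses the cut, was the third lowest with 84 reads in null and 92 in f/f (ratio 1.44). The clusters named here for their ratios were picked as extremes, and these values carry no test.

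**Figure D3:**
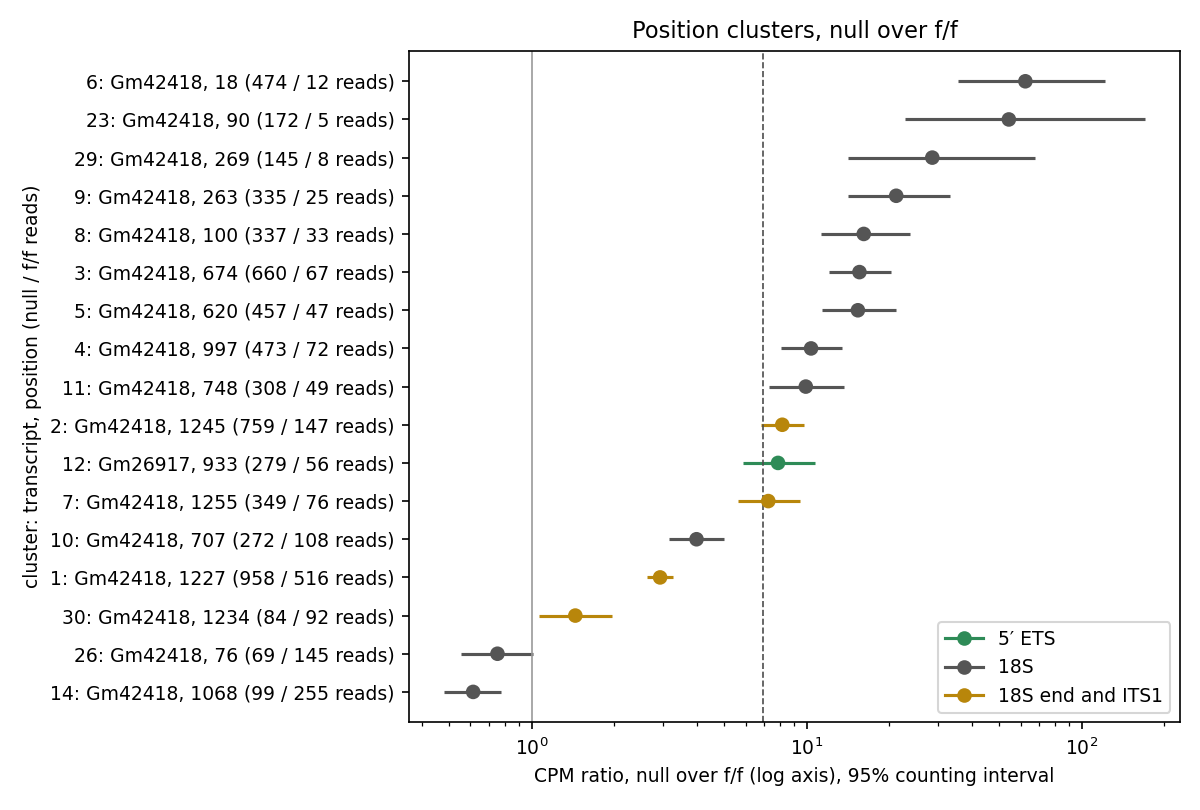
CPM ratio of null over f/f (log axis) with its 95% counting interval for the 12 clusters with most CPM and the 3 highest and 3 lowest ratios, each with its transcript position and reads. The solid line marks 1 and the dashed line the ratio of all member reads, 6.92; ratios run from 0.614 at position 1068 to 62.4 at position 18.

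In the 5′ ETS 1 cluster entered the leading 12, that at Gm26917 position 933, with 279 reads in null and 56 in f/f and a ratio of 7.87. Its reads began at the first base in capitals above in 94.98% of cases in null and 98.2% in f/f. The exact match leaves out any read that starts upstream and covers position 932, where nearly every read differs from GENCODE; with the substituted bases put in, after the data were seen, the shares were 76.6% of 346 reads in null and 90.2% of 61 reads in f/f. Its most frequent read, 32 nt from that base, had 83 reads in null and 15 in f/f. Over the leading 12 clusters together, the commonest start of each cluster held 47.5% of the reads in null and 47.5% in f/f. These starts were picked by CPM summed over both libraries, and single clusters differed in both directions. At Gm42418 position 263 the start held 239 of 335 reads in null and 4 of 25 in f/f. At position 997 it held 83.1% in null and 62.5% in f/f. At position 1255 it held 47.3% in null and 67.1% in f/f, and at position 1227 it held 34.6% in null and 43.4% in f/f. The equal totals thus do not mean equally sharp starts in each cluster. The commonest end of each cluster held 36.8% in null and 42.7% in f/f. The leading 5 clusters held 20.5% of member reads in null and 23.1% in f/f, so most reads of both libraries were spread over many positions.

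Member reads were longer in null. Reads of 24 nt or more made 54.6% (53.8 to 55.4%) of member reads in null and 38.95% (37.4 to 40.5%) in f/f, and the median length was 24 nt in null and 22 nt in f/f. The same held in each region: 58.2% in null and 44.9% in f/f in the 5′ ETS, 53.9% in null and 37.6% in f/f in 18S, and 60.1% in null and 43.3% in f/f in ITS1. The ratio was accordingly 5.15 for reads of 18 to 23 nt, 9.66 for 24 to 35 nt and 10.0 for 36 nt.

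This was not particular to the repeat. Exon fragments of other mRNA and lncRNA genes had 48.9% of their reads at 24 nt or more in null and 21.01% in f/f, or 51.2% in null and 33.1% in f/f without Tmem38b and Dnm3os. The mitochondrial rRNAs had 69.7% in null and 53.2% in f/f. Genes of biotype rRNA, most of whose reads match copies of 5S, went the other way with 87.4% in null and 92.9% in f/f.

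**Figure D4:**
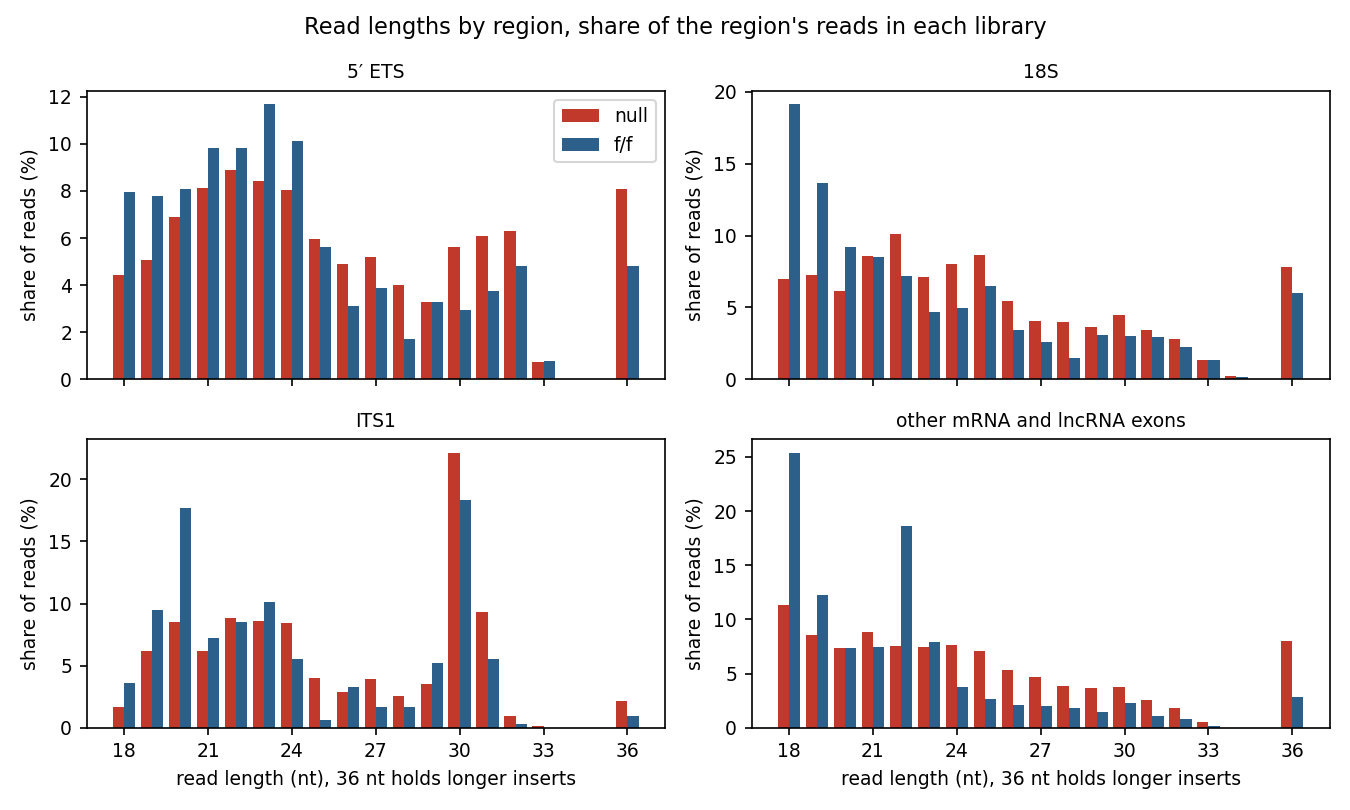
Read lengths from 18 to 36 nt as a share of the reads of each region in each library, null bars left of f/f bars. In 18S the f/f reads peak at 18 nt, in ITS1 both libraries peak at 30 nt (22.1% in null, 18.4% in f/f), and the 36-nt bar holds inserts at least that long.

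The mitochondrial rRNAs had a ratio near that of the members and the genes of biotype rRNA a lower one. The mitochondrial rRNAs, transcribed from mitochondrial DNA, had 71395 reads in null and 15945 in f/f, a ratio of 7.08 (6.96 to 7.20), whose interval overlaps that of the members. The 12S rRNA mt-Rnr1 had 20261 reads in null and 2137 in f/f (ratio 14.99), and mt-Rnr2 51134 in null and 13808 in f/f (ratio 5.85), so the ratio of the members lies between them. The genes of biotype rRNA had 66918 reads in null and 229361 in f/f, a ratio of 0.461 (0.457 to 0.465), and the copies of 5S share their reads. RNAs and mRNAs that take part in making rRNA were mostly higher in null, as most genes were. Of 22 annotated entries of processing RNAs with at least 100 reads, 21 were more than 2-fold higher in null and 0 more than 2-fold lower. Over all genes these shares were 79.0% and 6.54%. The median log2 ratio was 1.80 beside 2.13 over all genes, and the U3 and Rmrp entries share reads. The lowest ratio of the 22 entries was 1.87, for Snord14e (455 reads in null, 384 in f/f). Snord118, the U8 snoRNA needed for 5.8S and 28S, had the highest at 20.1, with 4125 reads in null and 324 in f/f. Snord13, a guide for acetylation of 18S, had 1012 reads in null and 124 in f/f (ratio 12.9), and the U3 gene Rnu3b1, whose RNA is needed for the early cuts around 18S, 15749 in null and 7113 in f/f (ratio 3.50).

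Of 15 genes for RNA polymerase I and its factors, 5 had at least 100 exon reads, of which 4 were more than 2-fold higher in null; Ubtf, the upstream binding factor, had 68 reads in null and 83 in f/f (ratio 1.29). Of 27 genes for nucleolar processing and decay, 12 had at least 100 reads and 12 were more than 2-fold higher in null, with a median log2 ratio of 2.42. Over all mRNA and lncRNA genes 82.3% were more than 2-fold higher in null, with a median log2 ratio of 2.12, so both counts are near the background. Among them were Nob1, the nuclease of the 18S 3′ end, with 135 reads in null and 45 in f/f, and Xrn1, an exonuclease that in yeast degrades the ITS1 fragment left by that cut, with 390 in null and 152 in f/f. These are exon fragments in a small RNA library and not measures of the mRNA.

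At 5 positions nearly every read carried another base than GENCODE, given as the annotated base, the transcript position and the base read. In Gm42418 these were C1061T (196 of 197 reads in null, 121 of 121 in f/f), T1153C (175 of 175 in null, 17 of 17 in f/f), T446G (155 of 156 in null, 67 of 67 in f/f) and A501G (125 of 126 in null, 5 of 5 in f/f), and in Gm26917 T932C (75 of 75 in null, 6 of 6 in f/f). The match without mismatch leaves such reads out. The f/f peak at position 1068 begins 7 bases after C1061T, and the start at position 933 lies directly after T932C. With these bases put in, chosen after the data were seen, the members had 17068 reads in null and 4168 in f/f, and the ratio was 6.47 (6.26 to 6.70).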

How the data were processed

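Small RNA was sequenced from 1 null and 1 f/f library. Per library, the authors deposited every distinct read sequence, 5 to 36 nt long, beside its raw count. The genome build was mm9, per the submitters' processing notes; aligner and adapter trimming: not given in the sources used here. Groups follow the genotype label.

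All reads of 18 nt or more were matched in sense, without mismatch, to GENCODE M21 transcripts (GRCm38). CPM used all reads of a library. Depth, 6291599 reads in null and 9943989 in f/f, sets a floor of 3 counts at 0.477 CPM in null and 0.302 CPM in f/f. Intervals at 95% were exact: Poisson for counts, conditional binomial for ratios, Clopper-Pearson for shares. No p-value was computed. Clusters took 5′ ends within 5 nt of the start with most summed CPM, in turn. The last 18S base was set before the read start with most summed CPM, searched within 10 nt of the annotated end. The reads from the ITS1 start are thus a class chosen with these same reads. Named were the 3 members, the 12 clusters with most CPM, the 5 most frequent sequences of each library, and the 3 highest and 3 lowest ratios among clusters with at least 100 reads; other reads named were chosen after their values were seen. The members and the lists of rRNAs, processing RNAs, RNA polymerase I genes and nucleolar genes were chosen with earlier results of these data known. Of the listed symbols, Skiv2l2, Papd5 and Papd7 were read as Mtrex, Tent4b and Tent4a, and Rn18s-rs5, Rn45s and Rn28s1 had no GENCODE entry. The list of rRNAs had 87 entries with at least 100 reads, 19 more than 2-fold higher in null and 47 more than 2-fold lower. Over all genes these shares were 79.0% and 6.54%. Many of the entries are copies of 5S that count the same reads, so they are not separate results. Alternatives were other denominators, length classes, minimum reads, cluster widths and matching rules. Work was done in Python 3.11.15 (scipy 1.17.1, numpy 2.4.6, pandas 2.3.3; figures with matplotlib 3.10.9), and the matching and intervals were tested on simulated data.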

Additional observations from a re-analysis of the deposited data

How the results depend on the processing

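No paired analysis was possible because each genotype had 1 library, and for the same reason no library could be left out. The log2 ratio of member reads, 2.79, was 4.55 per read matching an annotated transcript, 2.93 per read of 18 nt or more, 0.69 per snoRNA and snRNA read and 0.55 per mRNA and lncRNA exon read. Without Tmem38b and Dnm3os, a setting chosen after seeing the data, the last fell to -0.12, a reversed direction whose cause was not tested. It was 2.36 in reads of 18 to 23 nt, 3.27 at 24 to 35 nt, 3.03 and 3.24 for sequences with at least 2 and 10 reads, 3.11 when the last 3 nt were not matched and 2.69 with the substituted bases put in (also chosen after seeing the data). Leaving out reads of other genes, leaving out none, and allowing 1 mismatch moved it by less than its interval. The share of 24 nt or more was 51.2% in null and 35.9% in f/f without 36-nt reads, 56.4% in null and 45.05% in f/f over distinct sequences, and 36.7% in f/f for sequences with at least 2 reads. The leading 5 clusters held 16.1% in null and 18.9% in f/f at 2 nt, 25.7% in null and 33.1% in f/f at 10 nt, 21.6% in null and 21.5% in f/f by 3′ ends, 21.3% in null without 36-nt reads, 22.0% in null and 28.1% in f/f with at least 2 reads, and 19.4% in null and 20.4% in f/f with the substituted bases. At 10 nt the commonest start of the leading 12 clusters held 32.3% in null and 31.5% in f/f and the commonest end 34.4% in null and 37.9% in f/f; with 36-nt reads kept the end held 35.3% in null. The share with untemplated 3′ bases was 11.1% in null with at least 2 reads, and 11.2% in null and 9.67% in f/f with the substituted bases. At this depth a region with under 3 counts cannot be told from 0.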

Other observations

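Bases at the 3′ end that GENCODE does not give were common. Among reads under 36 nt whose first 18 nt or more matched a member, 12.4% in null and 15.0% in f/f ended in 1 to 3 bases that did not match. A part of these lie at the substituted positions: with the substituted bases put in, the share was 11.2% (10.7 to 11.6%) in null and 9.67% (8.82 to 10.6%) in f/f, so the order of the libraries turned round. Of the single added bases that then remained, 51.1% in null and 42.2% in f/f were T and 40.2% in null and 50.6% in f/f were A. Among reads in ITS1 the untemplated share was 26.1% (24.4 to 27.9%) in null and 25.4% (21.3 to 29.97%) in f/f, against 8.84% in null and 8.07% in f/f outside ITS1. T was the first such base in 61.3% of these ITS1 reads in null and 60.2% in f/f. Sequencing errors also fall on the last bases of a read, and their part in these shares was not tested.

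Reads of 33 to 35 nt were rare, 1.22% of member reads in null and 1.06% in f/f, beside 6.84% in null and 4.73% in f/f at 36 nt. Reads of 36 nt that matched a member except for their last 1 to 3 bases ended in C, CT or CTG in 70.3% of cases in null and 68.1% in f/f. The adapter sequence and its removal are not stated in the labels, and their part in these ends was not tested.

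The first base of 5′ ETS reads was G in 46.2% of cases in null and 64.2% in f/f, against 35.1% of the bases of Gm26917. Position 933, a G, was the start of 265 of these 1299 reads in null and 55 of 412 in f/f. The first base of Gm42418 reads was A in 28.5% in null and 20.1% in f/f, against 17.7% of its bases. A single start, the first ITS1 base, gave 646 of these 3796 reads in null and 103 of 610 in f/f.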
